A study of Mus musculus with 6 samples.

Results

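The 10 genes described here encode the core of the basement membrane. They are the type IV collagen chains Col4a1 and Col4a2, the laminin chains Lama4, Lama5, Lamb1, Lamb2 and Lamc1, the nidogens Nid1 and Nid2, and Hspg2, the gene of perlecan. They were taken by gene symbol from the 55364 genes listed in the raw count tables, by a rule that uses no measured value, although the genes were put together with earlier results of these data known. All 10 were found and passed the filter on low counts, as did 10346 genes in all. Lama4 had under 10 counts in every mutant library and passed it only through the wt libraries. Beside them, 4 lists of other basement membrane genes and 6 lists of cell type markers were counted.

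A basement membrane is a thin sheet of matrix on which epithelial and endothelial cells rest and which wraps muscle, fat and nerve cells. Laminins, each made of an α, a β and a γ chain, form a first network on the cell surface, and collagen IV, whose common protomer joins α1 chains with an α2 chain, forms a second, covalently crosslinked network. Nidogens and perlecan, a large heparan sulphate proteoglycan, bridge both networks. In the lung the sheet separates the alveolar epithelium from capillaries and from the interstitium, where fibroblasts live, and fibroblasts contribute some of its components.

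Primary lung fibroblasts (LFs) of mice were compared between wt and mutant animals, in 3 libraries each. The 6 libraries came from LFs exposed in serum-free medium to TGFβ1 at 10 ng/ml for 24 h, a treatment that turns fibroblasts into myofibroblasts, so that both genotypes carried it and no untreated library was analysed here. Sample labels call the mutant a TKS5 knockout, while the study's methods describe Tks5+/- mice, in which a CMV-driven Cre removed an exon of 1 copy of Sh3pxd2a, since mice without any copy were not viable. The 3 libraries of this genotype are called mutant here, and labelled Tks5+/- in the plots. The LFs were obtained from 8 to 10-week-old C57Bl6/J mice and used at passage 2 to 3. Tks5, encoded by Sh3pxd2a, is a scaffold protein of podosomes, the actin-rich adhesions with which cells degrade matrix. The labels do not say whether the 3 replicates of a genotype came from separate mice or cultures, while the study describes its samples as biologically independent, and the p-values measure the spread between these libraries.

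RNA was measured by Quant-Seq, in which cDNA synthesis starts at the poly(A) tail and reads come from the 3′ end of each transcript. The authors counted reads on 3′ UTR windows and summed them per gene. Total counts ran from 1344507 to 2369882 per library. Sh3pxd2a itself had 205, 190 and 284 counts in wt libraries 1, 2 and 3 and 238, 258 and 260 in the mutant libraries, a log2 fold change of 0.29 ± 0.20 SE (adjusted p = 0.249). With a correction for transcript length, described with the long genes below, it was 0.97 (adjusted p = 6.59e-04), and with library totals alone -0.13. These reads lie at the 3′ end, outside the deleted exon, and whether the mutant copy still gives them was not tested. By RT-PCR, the study reports less Tks5 mRNA in its Tks5+/- LFs than in wt LFs. No such fall was called in these reads, so they do not check the genotype. The fibroblast markers Col1a1, Col1a2, Pdgfra, Pdgfrb, Dcn, Lum, Thy1, Fn1, Vim and S100a4 all passed the filter, and their summed level was 13810 to 15680 CPM (reads scaled to a common library size, always by the TMM method here) in the wt libraries and 16790 to 19370 CPM in the mutant libraries. S100a4, which shares its reads with Gm42674, carried much of this sum, and without it the sums overlapped, at 4916 to 6037 CPM against 5458 to 8489 CPM. Of the 10 markers, Pdgfra, Thy1 and Vim were called higher, Fn1 and Pdgfrb lower, and 5 were not called. Over all tested genes 22.8% were called higher and 22.1% lower, so these counts lie near those shares and are no result about the list. The call of Pdgfra was lost without wt replicate 2 or 3 or without mutant replicate 1. Wt replicate 3 stood apart in macrophage markers, at 1899 CPM in sum against 307.1 and 359.8 CPM in the other two wt libraries and 124.0 to 139.7 CPM in the mutant libraries.

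Genomic positions of the genes are those of the GRCm38 annotation. Col4a1 (ENSMUSG00000031502, chr8:11198423-11312826, reverse strand) and Col4a2 (ENSMUSG00000031503, chr8:11312805-11449287, forward strand) lie head to head, and their annotated 5′ ends overlap. RefSeq places the start sites of the pair 21 bases apart, at 11312826 and 11312805 on opposite strands. The 30 bases that hold both start sites are shown because both genes are read outward from them, with a GC box in capitals (GGGCGG, a motif bound by Sp1 family factors).
Col4a1 and Col4a2, chr8:11312800-11312829, GRCm38.p6, forward strand: tcggcagtgcgcGGGCGGcgtctccaaggg
The windows from 250 bases before to 50 bases after the start site share 78 bases between both genes and had GC contents of 74.0% for Col4a1 and 73.67% for Col4a2.

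RefSeq promoters were at hand for 7 of the 10 genes, which were Col4a1, Col4a2, Lama5, Lamb1, Lamb2, Nid1 and Hspg2. The sequences before the start sites of both laminin β chains are shown because these chains take the same place in a laminin and differed in how far they fell. Capitals mark GC boxes as above. They also mark CCAAT boxes, a motif bound by NF-Y. The letters CAGAC, found in many Smad boxes, are in capitals as well. Both strands were searched for each motif, so that a motif of the other strand appears as its reverse complement. The start sites are those of RefSeq, and the GRCm38 annotation starts Lamb1 at 31265234 and Lamb2 at 108479736. The end of each sequence, with both marked CAGAC of Lamb2, thus lies within the annotated gene. What is said of these windows holds for the RefSeq start sites only.
Lamb1, chr12:31265043-31265292, GRCm38.p6, forward strand: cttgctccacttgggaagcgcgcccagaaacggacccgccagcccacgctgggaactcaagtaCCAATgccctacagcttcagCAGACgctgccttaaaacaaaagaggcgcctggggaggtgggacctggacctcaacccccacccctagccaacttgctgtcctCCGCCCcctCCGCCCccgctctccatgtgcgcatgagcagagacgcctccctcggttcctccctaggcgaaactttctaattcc
Lamb2, chr9:108479612-108479861, GRCm38.p6, forward strand: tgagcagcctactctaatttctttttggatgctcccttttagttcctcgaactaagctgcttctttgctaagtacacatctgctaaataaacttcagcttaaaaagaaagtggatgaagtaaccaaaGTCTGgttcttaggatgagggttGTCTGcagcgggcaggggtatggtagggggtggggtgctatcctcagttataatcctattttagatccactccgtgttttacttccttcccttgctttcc
The whole Lamb1 window of 300 bases had a GC content of 63.67%, with 2 GC boxes, 1 CCAAT box and 1 CAGAC. That of Lamb2 had a GC content of 44.0% and held 2 copies of CAGAC and neither a GC box nor a CCAAT box. A GC box was found in 6 of the 7 promoters and in 35.66% of 32851 RefSeq promoters of the same length, a CCAAT box in 4 of 7 against 37.41%, and CAGAC in 4 of 7 against 49.59%. The only GC box of Col4a1 is the one shown between both start sites and was also counted for Col4a2, so these promoters are not independent. The letters TATAAA, present in 13.62% of all promoters, and TGANTCA, an AP-1 site present in 7.808%, were found in none of the 7. Such matches describe the letters in these windows and are not evidence of a bound site.

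In the mutant libraries, 8 of the 10 genes fell, 1 rose and 1 did not pass the test. Calls needed an adjusted p under 0.05 from edgeR's quasi-likelihood F test and at least a 1.2-fold difference, and 22.1% of all tested genes were called lower and 22.8% higher by the same rule. The genes that fell were Col4a1, Col4a2, Lama4, Lama5, Lamb1, Lamb2, Lamc1 and Hspg2. Nid2 was higher and Nid1 was not called. The median log2 fold change of the 10 genes was -1.29, against -0.046 over all tested genes. The CPM of the genotypes did not overlap for the same 8 genes in the lower and for Nid2 in the higher direction, where 27.6% and 26.1% of all tested genes had no overlap. For 2 of the 10 genes, Lama5 and Nid2, the reads cannot be told apart from those of a neighbouring gene, as described with each. Without these, 7 of 8 genes were called lower, with a median log2 fold change of -1.57. Lama4 passed the filter only through the libraries in which it was high, so that it had to differ. Without Lama4 alone, 7 of 9 genes were called lower with a median of -1.26, and without all 3 of these genes 6 of 7 with a median of -1.32. Since whole LF cultures were sequenced, fewer cells of a type and less RNA per cell cannot be told apart.

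**Figure D1:**
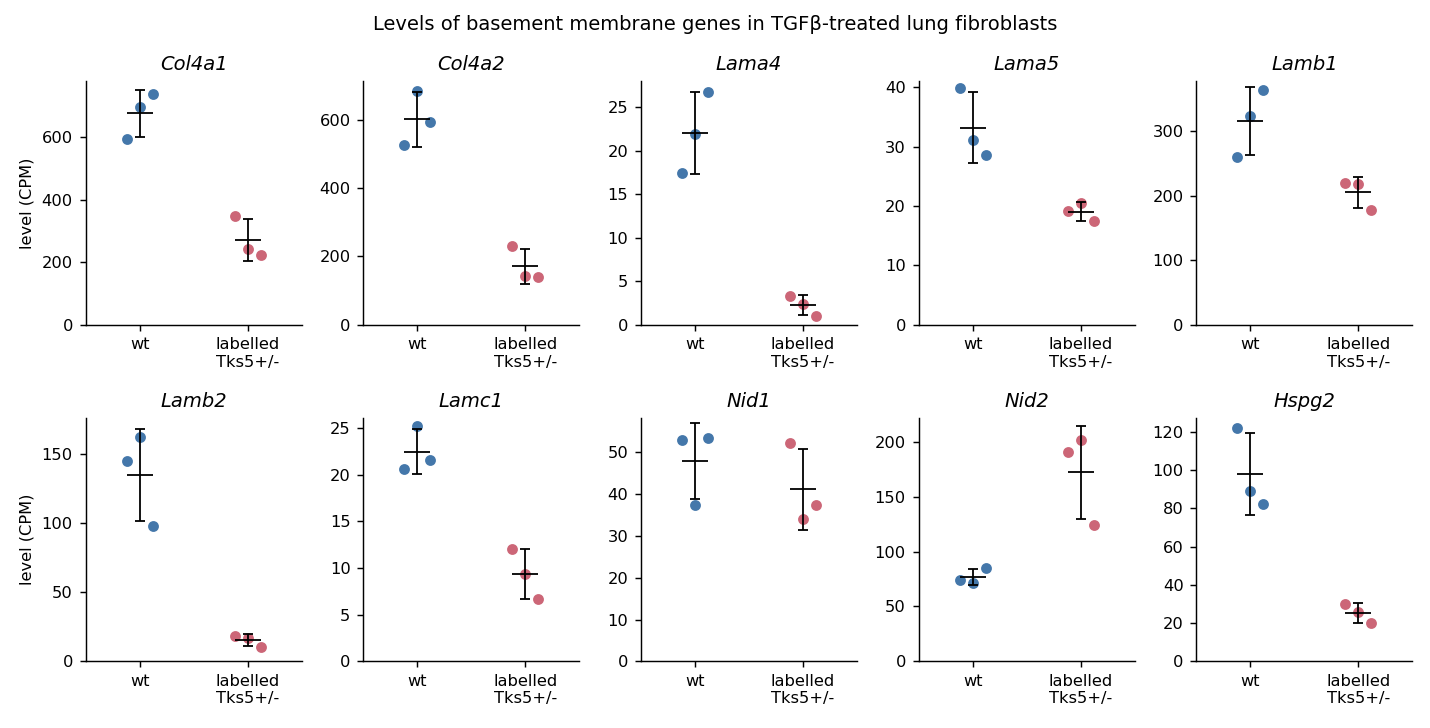
Level of each of the 10 genes in CPM (vertical axes, each from 0) in 3 wt and 3 mutant libraries (named labelled Tks5+/- on the axes) exposed to TGFβ. Points are libraries, and bars are the mean and SD (n = 3). The genotypes overlap only for Nid1, Nid2 is higher in the mutant libraries, and the other genes are lower. Reads of Lama5 and Nid2 are shared with a neighbouring gene.

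Both collagen IV chains fell. Col4a1 had 923, 1306 and 1997 counts in wt libraries 1, 2 and 3, and 633, 413 and 437 in the mutant libraries. On the CPM scale this was 678 ± 75.4 (SD, n = 3) against 271 ± 66.8 (SD, n = 3), 2.50-fold lower, with a log2 fold change of -1.32 ± 0.22 SE (adjusted p = 3.83e-05). Each mutant library was below each wt library, and mutant replicate 1 was the highest of its group. Col4a2, the partner chain, had 817, 1282 and 1599 counts in the wt libraries and 418, 242 and 276 in the mutant libraries. Its level went from 602 ± 80.4 CPM (SD, n = 3) to 171 ± 50.8 CPM (SD, n = 3), 3.52-fold lower (log2 fold change -1.82 ± 0.23 SE, adjusted p = 1.575e-06). The genotypes again did not overlap, and mutant replicate 1 was again the highest of its group. Both falls were called under each of the 21 alternative settings, although a correction for transcript length together with GC content brought them to -0.69 and -1.14 on the log2 scale and the authors' normalized counts gave -1.94 for Col4a1.

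The estimated fall was larger for Col4a2 than for Col4a1. Within a library, the log2 ratio of Col4a1 to Col4a2 was 0.17 ± 0.15 (SD, n = 3) in the wt libraries and 0.67 ± 0.09 (SD, n = 3) in the mutant libraries, a change of 1.41-fold. All 3 ratios of the mutant libraries, 0.60, 0.77 and 0.66, were above the wt ratios of 0.18, 0.03 and 0.32. An exact two-sided permutation test gave p = 0.1, the smallest p that 3 libraries against 3 allow, and 0.1 after adjustment over the 4 pairs compared. Reads at the 3′ end are counted per gene with its own window, so the ratio describes reads and not the number of chains in a protomer.

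Lama4 and Lamb2 had the lowest estimates of the laminin chains, in an order that turned without wt replicate 3. Lamb2 (ENSMUSG00000052911, chr9:108479736-108490530, forward strand) encodes a chain found in basement membranes of muscle, kidney glomerulus and vessels. It had 225, 304 and 265 counts in wt libraries 1, 2 and 3, and 34, 29 and 21 in the mutant libraries. This was 135 ± 33.3 CPM (SD, n = 3) against 15.5 ± 4.17 CPM (SD, n = 3), 8.75-fold lower (log2 fold change -3.13 ± 0.27 SE, adjusted p = 1.29e-08). The wt values ran from 98.26 to 162.7 CPM and the mutant values from 10.75 to 18.66 CPM, so that the groups were far apart. Usp19 begins 71 bases beyond the end of Lamb2 on the same strand and had 130, 140 and 176 counts in the wt libraries against 135, 75 and 92, with overlapping CPM and no call (adjusted p = 0.134).

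Lamb1 (ENSMUSG00000002900, chr12:31265234-31329644, forward strand), which encodes the β1 chain of most widespread laminins, fell less. Its counts were 404, 605 and 982 in the wt libraries and 400, 374 and 348 in the mutant libraries, or 316 ± 52.5 CPM (SD, n = 3) against 205.5 ± 23.7 CPM (SD, n = 3). That is 1.54-fold lower, with a log2 fold change of -0.62 ± 0.21 SE (adjusted p = 0.0167). The lowest wt library, at 260.0 CPM, lay above the highest mutant library, at 219.5 CPM. The call was lost without wt replicate 2 (adjusted p = 0.0627), without wt replicate 3 (0.0753) and without mutant replicate 3 (0.107), and with a correction for transcript length (log2 fold change -0.24). The log2 ratio of Lamb1 to Lamb2 within a library went from 1.24 ± 0.56 (SD, n = 3) to 3.67 ± 0.23 (SD, n = 3), a change of 5.42-fold without overlap (exact permutation p = 0.1, adjusted over the 4 pairs 0.1). The change ran from 2.24 to 2.76 on the log2 scale when 1 library was left out in turn, and was 1.90 on the authors' normalized counts.

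Lama4 (ENSMUSG00000019846, chr10:38965515-39110188, forward strand) encodes the laminin α4 chain of vessels, muscle and other mesenchymal tissue. It had 27, 41 and 72 counts in wt libraries 1, 2 and 3 and 6, 4 and 2 in the mutant libraries, a low number of reads in the latter group. Its level was 22.0 ± 4.66 CPM (SD, n = 3) against 2.22 ± 1.14 CPM (SD, n = 3), 9.92-fold lower (log2 fold change -3.30 ± 0.43 SE, adjusted p = 2.51e-06). The 95% interval on the log2 scale, -4.19 to -2.41, was wider than for the more abundant genes. Without wt replicate 3 the log2 fold change was -3.13, against -3.32 for Lamb2 in the same fit. The call held under the 20 alternatives that could test the gene, and a minimum of 10 counts in every library left it untested. Since Lama4 passed the filter only through the wt libraries, these calls add no support.

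Lamc1 (ENSMUSG00000026478, chr1:153218922-153332786, reverse strand) encodes the γ1 chain, which most laminins contain. It had 32, 47 and 58 counts in the wt libraries and 22, 16 and 13 in the mutant libraries. This was 22.4 ± 2.41 CPM (SD, n = 3) against 9.36 ± 2.71 CPM (SD, n = 3), 2.39-fold lower (log2 fold change -1.26 ± 0.32 SE, adjusted p = 0.00281). The lowest wt library was at 20.6 CPM and the highest mutant library at 12.07 CPM. With a correction for transcript length the log2 fold change was -0.76 and the call was lost (adjusted p = 0.0606).

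Lama5 (ENSMUSG00000015647, chr2:180176373-180225859, reverse strand) encodes the α5 chain of epithelial and vascular basement membranes. It was listed with 62, 58 and 77 counts in the wt libraries and 35, 35 and 34 in the mutant libraries, at 33.2 ± 5.97 CPM (SD, n = 3) against 19.0 ± 1.55 CPM (SD, n = 3). The log2 fold change was -0.79 ± 0.26 SE (adjusted p = 0.0177). The gene ends 86 bases from the end of Adrm1 (chr2:180171485-180176286, forward strand), which encodes a ubiquitin receptor of the proteasome. Adrm1 was listed with 62, 56 and 77 counts in the wt libraries and 32, 35 and 33 in the mutant libraries, the same as Lama5 in 3 libraries and within 3 reads in the others. The reads of both genes thus cannot be told apart, and the value of Lama5 is uncertain. Beyond that, the call was lost without wt replicate 1 (adjusted p = 0.0879) and without mutant replicate 3 (0.0753), and the log2 fold change was -0.08 with a correction for transcript length and 0.22 with one for length and GC content.

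**Figure D2:**
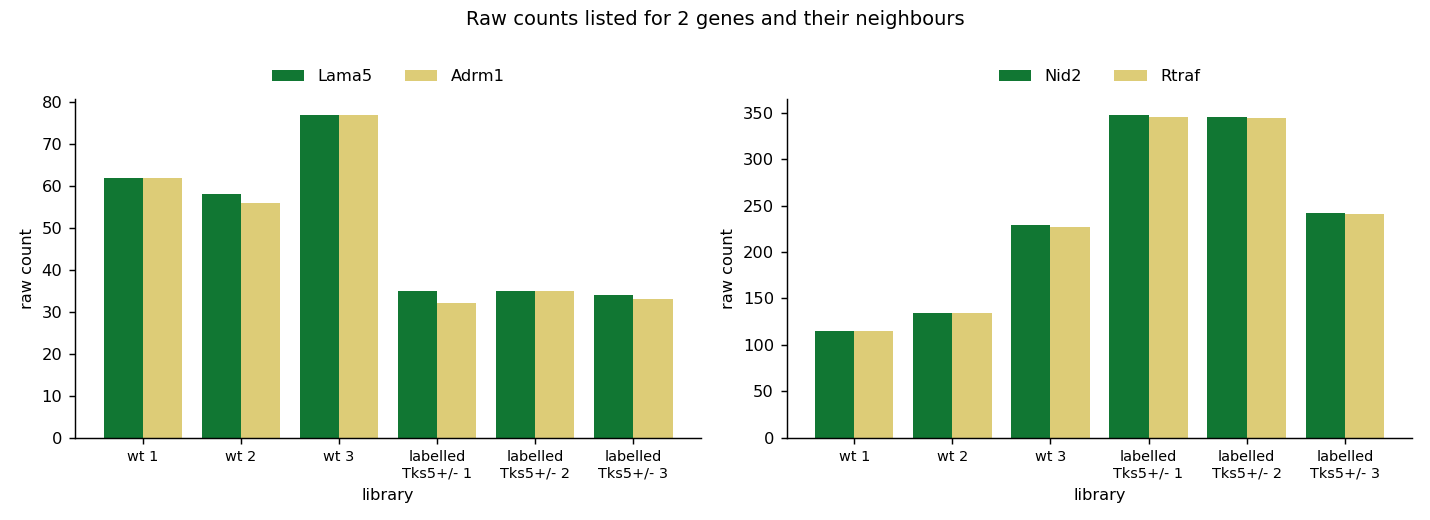
Raw counts (vertical axes, from 0) listed in each of the 6 libraries for Lama5 and Adrm1 and for Nid2 and Rtraf. In each pair the bars of both genes are within 3 counts of each other in every library.

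All 5 laminin chains were thus called lower, and 4 of 4 when Lama5 was set aside, against 22.1% of all tested genes. Of these 4, Lama4 passed the filter only through the wt libraries, and Lamb1 and Lamc1 lost the call with the correction for transcript length. The log2 ratio of Lama4 to the reads listed for Lama5 went from -0.58 ± 0.54 (SD, n = 3) to -2.69 ± 0.47 (SD, n = 3), a change of 4.32-fold without overlap (exact permutation p = 0.1, adjusted over the 4 pairs 0.1). Because those reads are shared with Adrm1, this ratio cannot be read as one of the α chains alone. It also rests on Lama4, which passed the filter only through the wt libraries, so that its fall is no separate support.

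**Figure D3:**
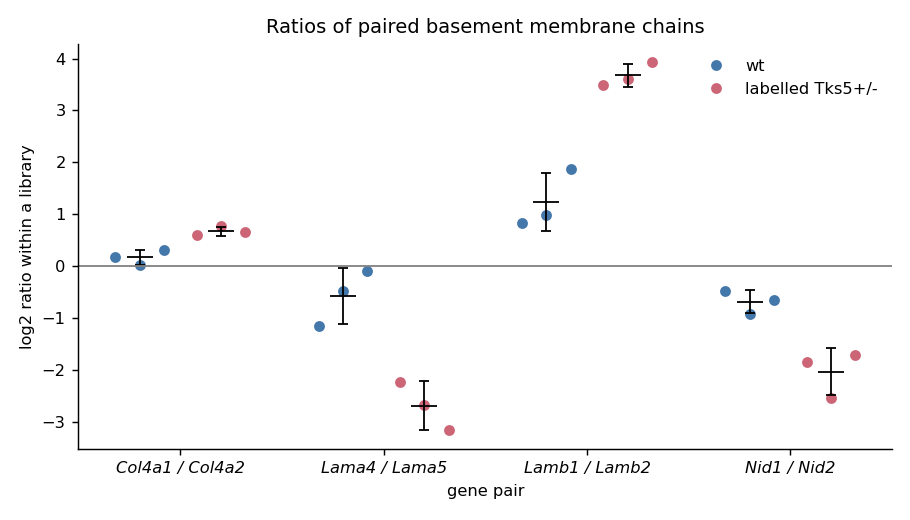
Log2 ratio of counts within each library (vertical axis, prior count 2) for 4 pairs of genes that take like places in the basement membrane, in 3 wt and 3 mutant libraries. Points are libraries, and bars are the mean and SD (n = 3). The ratio of Lamb1 to Lamb2 changed by 2.44 on the log2 scale, and the genotypes do not overlap in any pair. Lama5 and Nid2 share reads with a neighbouring gene, and Lama4 passed the filter only through the wt libraries.

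Perlecan, the heparan sulphate proteoglycan that ties laminin and collagen IV networks to growth factors and cells, fell as well. Hspg2 (ENSMUSG00000028763, chr4:137468769-137570630, forward strand) had 190, 167 and 222 counts in wt libraries 1, 2 and 3 and 55, 44 and 39 in the mutant libraries. Its level was 98.0 ± 21.3 CPM (SD, n = 3) against 25.3 ± 5.13 CPM (SD, n = 3), 3.87-fold lower (log2 fold change -1.95 ± 0.24 SE, adjusted p = 1.48e-06). The lowest wt value of 82.31 CPM stood well above the highest mutant value of 30.18 CPM. Hspg2 has the longest annotated transcript of the 10 genes, with 14187 nt, and a correction for transcript length brought its log2 fold change to -1.14 (adjusted p = 4.54e-04).

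Neither of the nidogens, glycoproteins that link laminin to collagen IV, was called lower. Nid1 (ENSMUSG00000005397, chr13:13437551-13512269, forward strand) had 82, 70 and 144 counts in the wt libraries and 95, 58 and 73 in the mutant libraries. The CPM overlapped, at 47.9 ± 9.03 (SD, n = 3) against 41.1 ± 9.67 (SD, n = 3). Its log2 fold change was -0.22 (adjusted p = 0.478), and the 95% interval from -0.72 to 0.28 still held a fall of the size of that of Lamb1. Scaling by library totals alone, which moved the median of all tested genes from -0.046 to -0.47, gave -0.63 with an adjusted p of 0.0452, and a correction for transcript length gave 0.18.

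Nid2 (ENSMUSG00000021806, chr14:19751265-19811787, forward strand) was listed with 115, 134 and 229 counts in wt libraries 1, 2 and 3 and 348, 345 and 242 in the mutant libraries. That was 76.9 ± 7.05 CPM (SD, n = 3) against 172 ± 42.3 CPM (SD, n = 3), 2.24-fold higher (log2 fold change 1.16 ± 0.22 SE, adjusted p = 1.99e-04). The last 437 bases of Nid2 overlap the end of Rtraf (chr14:19811351-19823824, reverse strand), which encodes an RNA-binding protein of transcription and RNA transport complexes. Rtraf was listed with 115, 134 and 227 counts in the wt libraries and 346, 344 and 241 in the mutant libraries, within 2 reads of Nid2 in each library. Which gene these reads come from cannot be told from the counts, so the higher value is one of the reads shared by Nid2 and Rtraf. With a correction for transcript length these nearly identical counts gave a log2 fold change of 1.45 under the name of Nid2 and 0.82 under that of Rtraf. The log2 ratio of Nid1 to the reads listed for Nid2 went from -0.69 ± 0.22 (SD, n = 3) to -2.03 ± 0.44 (SD, n = 3), without overlap (exact permutation p = 0.1, adjusted over the 4 pairs 0.1). No other of the 10 genes had a gene within 1000 bases with counts within 10% or 3 reads in every library.

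The size of a fall moved with transcript length in these libraries. Across 10339 tested genes with a known length, the log2 fold change and the length of the longest transcript had a Spearman correlation of -0.397, given as a description, since genes share the same 6 libraries. The 10 genes are long, with longest transcripts from 4876 to 14187 nt (median 6270.5) against a median of 3204 nt over all tested genes, and all 10 had a GC content above the median of 49.97%. When each library was corrected for its trend with transcript length, 5 of the 10 genes were called lower, which were Col4a1, Col4a2, Lama4, Lamb2 and Hspg2. The median log2 fold change of the 10 genes was -0.82. Of all 10346 tested genes, 1957 were called lower with this correction, and their median was -0.014 over all tested genes. None of the 5 genes had a neighbour with nearly the same counts, but Lama4 passed the filter only through the wt libraries. Whether a part of the reads is shared, as with Usp19 beside Lamb2, was not tested. Gm15418, which overlaps the 3′ end of Col4a1 on the other strand, had 0 counts in every library.

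**Figure D4:**
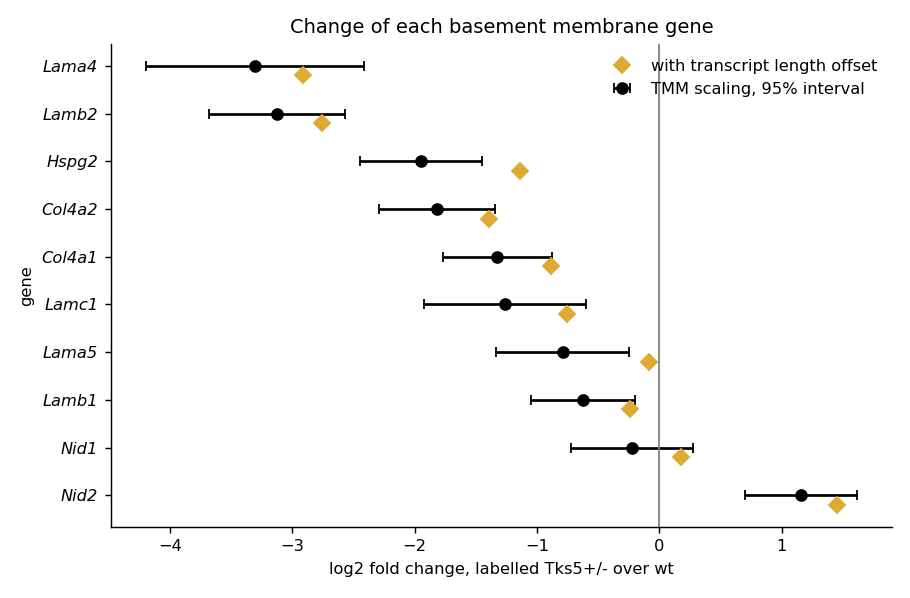
Log2 fold change of each of the 10 genes between mutant libraries and wt libraries (horizontal axis), ordered by size. Black points with bars are the edgeR estimate and its 95% interval, and diamonds are the estimate with a correction for transcript length. Lama4 and Lamb2 lie furthest below 0, and the correction moves Lama5 and Nid1 to near 0.

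Markers of other cell types moved too. The summed level of 10 endothelial markers was 119.3 to 151.6 CPM in the wt libraries and 45.64 to 60.39 CPM in the mutant libraries, and 5 of the 10 could be tested. Of these, Pecam1, Kdr and Emcn passed the filter only through the wt libraries, and of the other two Egfl7 was called lower and Ramp2 was not called. Pecam1, an endothelial adhesion receptor, had 7, 10 and 21 counts against 0 in all 3 mutant libraries, where a count of 0 allows up to 3 counts, and Kdr, a VEGF receptor, had 17, 17 and 28 against 0, 0 and 2. In each wt library both had fewer counts than any of the 10 basement membrane genes. Egfl7, however, had 91, 118 and 203 counts in the wt libraries against 35, 33 and 46. That was more than Lama4, Lama5 and Lamc1 in each wt library. The 6 mesothelial markers summed to 27.83 to 38.56 CPM in the wt libraries and 5.117 to 14.27 CPM in the mutant libraries, and both that were tested, Upk3b and Upk1b, passed the filter only through the wt libraries. Of 11 epithelial markers, which summed to 34.78 to 66.74 CPM against 30.7 to 63.2 CPM, the defining Sftpc, Sftpb, Sftpa1 and Scgb1a1 were at 0 in all libraries. Ager, called higher, shares its reads with Rnf5, and without it the epithelial sums were 25.15 to 53.76 CPM against 1.535 to 3.841 CPM. Cdh1, the epithelial cadherin, had 17, 8 and 58 counts against 0 in all 3 mutant libraries. Krt18 and Cldn4 passed the filter only through the wt libraries.

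The 10 smooth muscle and pericyte markers summed to 4951 to 5951 CPM in the wt libraries and 6308 to 7242 CPM in the mutant libraries. Tagln was at 452.2 to 500.9 CPM against 1208 to 2694 CPM, and without it the sums overlapped. Of 8 tested, 5 were called lower and 2 higher, against 22.1% and 22.8% of all tested genes. Those lower were Myh11, Des, Cspg4, Pdgfrb and Notch3, and those higher were Tagln and Cnn1. Cspg4 and Notch3 passed the filter only through the wt libraries, as did the macrophage markers Cd68 and Adgre1. The call of Notch3 was also lost without wt replicate 1 (adjusted p = 0.167) or mutant replicate 3 (0.0699). Of 8 tested macrophage markers, 4 were called lower, against 22.1% of all tested genes. Among these 4, Cd68 and Laptm5 lost the call without any 1 of the mutant libraries. Without wt replicate 3, which held most of the macrophage reads, 7 of the 10 basement membrane genes were called lower, with Lamb1 lost, and Nid2 was still called higher. In that fit, 1924 of all 10683 tested genes were called lower and 2162 higher. The part that endothelial, epithelial, mesothelial, pericyte or macrophage cells have in the fall of the basement membrane genes was not tested.

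The other genes of the basement membrane were counted on 4 lists, to be read beside the 22.1% of all tested genes called lower and the 22.8% called higher. Among 30 other structural components, 14 could be tested, of which 8 were called lower, 0 higher and 6 not, with a median log2 fold change of -0.92. Col15a1 and Ntn4 passed the filter only through the wt libraries, and without them 6 of 12 were called lower, with a median of -0.86. At an unadjusted p under 0.05 in edgeR, 1 was higher, Smoc1, and DESeq2 and limma-voom each called 0 higher. Ntn4, which encodes a netrin that disrupts laminin networks, had 77, 131 and 48 counts in the wt libraries and 4, 4 and 5 in the mutant libraries (log2 fold change -4.22, adjusted p = 9.61e-06). Col15a1, a collagen of the zone beneath basement membranes, had 21, 12 and 24 counts against 0, 0 and 2, which is at least 5.84-fold lower against a floor of 3 counts per library. Smoc2 (log2 fold change -1.48) and Fbln2 (-1.20), calcium-binding and fibulin proteins of the basement membrane, fell as well, with adjusted p of 9.53e-05 and 4.52e-04. The remaining genes called lower were Lama2, the α chain of muscle laminin (51, 77 and 67 counts against 24, 25 and 22), Agrn, Sparc, a collagen-binding protein, and Pxdn, the peroxidase that crosslinks collagen IV. The CPM of Sparc overlapped between the genotypes, with a lowest wt value of 2400 CPM and a highest mutant value of 2432 CPM. The call of Pxdn was lost without wt replicate 2 or without mutant replicate 1 or 3. A correction for transcript length gave -0.70 for Lama2 (adjusted p = 0.0554) and -0.38 for Pxdn (adjusted p = 0.253), which ended both calls and left 6 of the 14 called lower. Col4a5, a further collagen IV chain, had 10, 16 and 17 counts against 9, 11 and 12 and was not called (log2 fold change -0.27, adjusted p = 0.62).

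Receptors bind cells to the basement membrane. Of 14 listed receptors 9 were tested, with 4 called lower, 1 higher and 4 not, and a median log2 fold change of -0.25. With a correction for transcript length 2 were called lower and 2 higher, and the calls of Dag1 (-0.36, adjusted p = 0.222) and Sdc2 (-0.49, adjusted p = 0.0731) ended. The call of Sdc2 was also lost in all but 1 of the fits that left out a library, the exception being wt replicate 3. Itga1, the α chain of the collagen-binding integrin α1β1, had 67, 110 and 66 counts in the wt libraries and 20, 10 and 14 in the mutant libraries (log2 fold change -2.37, adjusted p = 1.11e-05). Ddr1, a receptor kinase for collagens, had a log2 fold change of -1.26 (adjusted p = 1.81e-04). Dag1, the gene of dystroglycan, which binds laminin and perlecan, was called at -0.72 (adjusted p = 0.0171), but its CPM overlapped between the genotypes and the call was lost without wt replicate 1 or 2 or without mutant replicate 2 or 3. Sdc4, a heparan sulphate proteoglycan of the cell surface, rose by 0.67 on the log2 scale (adjusted p = 0.0204), a call lost without wt replicate 2 or 3. Itgb1, the β chain shared by most of these integrins, had 746, 719 and 1097 counts against 767, 649 and 1076 and was not called (log2 fold change 0.09, adjusted p = 0.753).

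Collagen IV is folded and exported by enzymes and chaperones of the secretory pathway. Of 16 tested genes, 4 were called lower, 3 higher and 9 not, with a median log2 fold change of 0.03. These shares lie near those over all tested genes and are no result about the list. Without wt replicate 3, 2 were called lower and 1 higher, and Plod3 was among the calls lost (adjusted p = 0.0626). P4ha3, a catalytic subunit of collagen prolyl 4-hydroxylase, fell (107, 121 and 193 counts against 44, 29 and 39, log2 fold change -1.74, adjusted p = 4.03e-06), whereas the other two catalytic subunits, P4ha1 and P4ha2, rose by 0.62 and 0.62 on the log2 scale (adjusted p = 0.0249 and 0.0236). Those calls were lost without wt replicate 2 or 3, and without mutant replicate 1 for P4ha1 and 3 for P4ha2. Mia3, which loads procollagen into transport carriers, had a log2 fold change of -0.93 (adjusted p = 0.0015), and P3h1, a prolyl 3-hydroxylase, one of -0.68 (adjusted p = 0.0113), a call lost without wt replicate 3 or mutant replicate 2. Ppib, a prolyl isomerase that partners P3h1, rose by 0.83 (adjusted p = 0.00726), and its end lies beside that of Snx22 on the other strand. Serpinh1, the collagen chaperone, had 1120, 944 and 1061 counts against 1310, 1577 and 1196 and was not called (log2 fold change 0.48, adjusted p = 0.0985).

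Proteases that process or cut basement membranes and their inhibitors were the last list. Of 15 tested genes, 6 were called lower, 2 higher and 7 not, with a median log2 fold change of -0.42. Mmp10, a stromelysin that cuts collagen IV and laminin, rose from 14, 13 and 42 counts in the wt libraries to 180, 270 and 351 in the mutant libraries (log2 fold change 3.73, adjusted p = 6.54e-09). It was 10.5 ± 4.50 CPM (SD, n = 3) against 145.5 ± 41.8 CPM (SD, n = 3), without overlap. Mmp2, a gelatinase that also cuts collagen IV, fell (261, 333 and 419 counts against 115, 48 and 115, log2 fold change -1.73, adjusted p = 8.84e-06). Gm45472, on the reverse strand, lies at the 3′ end of Mmp2. Bmp1, which cleaves procollagens and the laminin γ2 chain, had a log2 fold change of -1.42 (adjusted p = 1.17e-05). Timp3, an inhibitor bound to the matrix, had one of -1.35 (adjusted p = 4.04e-05), and it lies within Syn3, a gene of the other strand. Mmp14, a membrane-bound activator of Mmp2, had 92, 194 and 196 counts against 143, 70 and 111 and was not called (log2 fold change -0.42, adjusted p = 0.184).

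**Figure D5:**
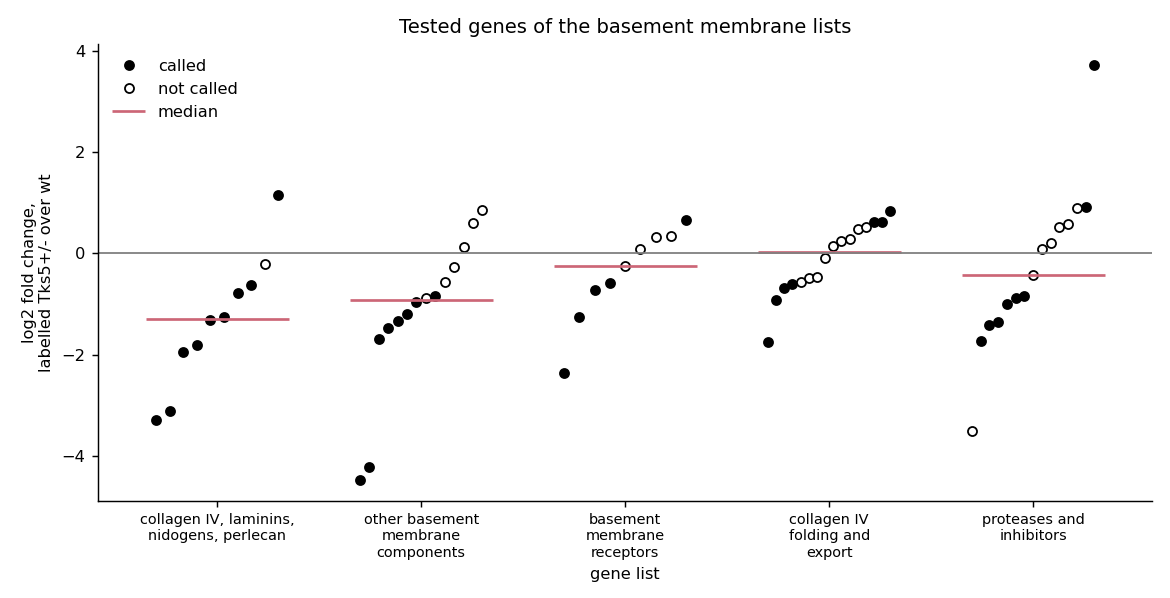
Log2 fold change (vertical axis) of each tested gene among the 10 basement membrane genes and the 4 lists of other basement membrane genes, between mutant libraries and wt libraries. Each point is a gene, filled where it was called, and lines are medians. The median is lowest for the 10 genes, at -1.29, and nearest to 0 for collagen IV folding and export, at 0.03.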

How the data were processed

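Quant-Seq reads of 6 libraries, 3 wt and 3 mutant, were used. Per the study's methods and the submitters' processing notes, the authors used Trim Galore for trimming and HISAT2 followed by Bowtie2 for alignment to GRCm38 (mm10), and counted reads with metaseqR2 on 3′ UTR windows of at least 300 bp with a flank of 50 bp, which gave the deposited raw counts per gene. Whether counting kept to 1 strand is not given in the sources used here. The deposited table of normalized counts, which the authors made with EDASeq and rounded to whole numbers, was used only as a score in an alternative. Total counts of 1344507 to 2369882 per library set the precision, and a library with 0 counts allows up to 3 counts.

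Of 55364 genes, 55104 matched the GRCm38 annotation (symbols, positions, transcript lengths) and 33644 had no count. Raw counts were tested with edgeR 4.0.16 under R 4.3.3 (low counts removed by filterByExpr, scaling by TMM, robust quasi-likelihood F test), with p-values adjusted by the Benjamini-Hochberg method over all 10346 genes tested, and every adjusted p in the text comes from this test unless an alternative is named. A call needed an adjusted p below 0.05 and at least a 1.2-fold difference. Levels are CPM on TMM-scaled library sizes. Single levels and the 4 ratios within libraries (log2, prior count 2) were compared with exact two-sided permutation tests, whose smallest p is 0.1.

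The alternatives were DESeq2 1.42.0, limma-voom (limma 3.58.1), RLE and upper-quartile scaling, library totals alone, other filters and thresholds, loess corrections for transcript length and GC content (span 0.5), the replicate number as a block, the normalized table with limma (pseudocount 1), and each library left out. Leaving out the genes whose reads are shared with a neighbour, or those that passed the filter only through the wt libraries (under 10 counts in every mutant library), was added after seeing the data. The fit was tested on simulated data. The 10 genes and the lists were chosen with earlier results of these data known. The text names the 10 genes, Sh3pxd2a and the 4 called genes of each list of basement membrane genes with the smallest adjusted p. Other genes, neighbours among them, were named after their values were seen. Promoters came from RefSeq on GRCm38.p6.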

Additional observations from a re-analysis of the deposited data

How the results depend on the processing

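Col4a1, Col4a2, Lamb2 and Hspg2 were called lower and Nid2 higher under all 21 alternatives. Lama4 was called lower under the 20 that tested it, but it passed the filter only through the wt libraries, so that these calls add no support. The reads of Nid2 are shared with Rtraf, and listed under that name they were called higher under 20 of the 21. Of the 10 genes, DESeq2, limma-voom, RLE and upper-quartile scaling and the replicate block each called 8 lower. Of all 10346 tested genes they called 1865, 2259, 2190, 2394 and 2308 lower, in that order. A correction for transcript length called 5 lower, as did one for length and GC content (5) and the replicate block with the length correction (5). Of all 10346 tested genes, these settings called 1957, 1803 and 1922 lower. In that order, the median log2 fold change of the 10 genes was -0.82, -0.66 and -0.83, that of Lama5 was -0.081, 0.22 and -0.082, that of Lamb1 -0.24, -0.18 and -0.23, that of Lamc1 -0.76, -0.64 and -0.77, and that of Nid1 0.18, 0.19 and 0.18, so that Nid1 turned under all 3 and Lama5 under the second. The correction for GC content alone gave -0.50 for Lama5 (adjusted p = 0.126). The authors' normalized counts gave a median of -1.54, -0.63 for Lama5 (adjusted p = 0.0558) and a change of 1.90 in the log2 ratio of Lamb1 to Lamb2. Library totals alone gave a median of -1.70, Nid1 at -0.63 past the threshold, and 2 listed basement membrane genes called higher in place of 6, with 3944 of all tested genes called lower and 1362 higher. Leaving out Lama5 and Nid2 gave a median of -1.57. Why these settings moved the values was not tested.

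When single libraries were removed, the log2 fold change of Lama5 ran from -0.90 to -0.65 and that of Lamb1 from -0.75 to -0.49. From 3 to 7 of the listed basement membrane genes were called higher, with 3 without wt replicate 2 and 3 without wt replicate 3. Over all tested genes, 2007 of 10808 and 2162 of 10683 were called higher in these fits. The deviations of wt and mutant libraries with the same replicate number correlated at -0.0010, -0.0637 and 0.0820. Those of libraries with different numbers correlated at -0.102 to 0.0973. The study isolated LFs of both genotypes from littermates, and with 3 libraries per genotype these values cannot tell whether the numbers pair the libraries. With the replicate block, calls over all genes went from 2286 lower and 2356 higher to 2308 and 2360, the 10 genes had a median of -1.31, and 1 of them, Nid2, was called higher. Depth limits Lama4, Lamc1 and Lama5 most, since each had under 80 counts in every library.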

Other observations

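Itga7, the α chain of a laminin-binding integrin of muscle, was not tested because of low counts in most libraries. It had 4, 9 and 7 counts in wt libraries 1, 2 and 3 and 1617, 0 and 7 in mutant libraries 1, 2 and 3, and it was singled out after these values were seen.

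Among the lists of basement membrane genes, Colgalt1, which glycosylates collagen, also shared its reads with a neighbour. Its 964, 1389 and 1985 counts in the wt libraries and 1020, 678 and 1059 in the mutant libraries differed by at most 16 from those listed for Unc13a in every library. Ager, Ramp2 and S100a4 of the cell type marker lists shared theirs with Rnf5, Vps25 and Gm42674.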
